A study of Schmidtea mediterranea with 24 samples.

Results

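The response of the planarian tail to an injection that carried no vesicles was measured by setting buffer-injected tails against uninjected tails. The comparison takes 16 of the 24 sequencing samples of the series, which are 8 of its 12 libraries, since each library was read in 2 runs and the runs were summed. The 8 libraries were chosen by their labels alone, 4 buffer-injected and 4 uninjected, and the counts of all 28742 transcripts in the table entered.

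All animals were asexual *Schmidtea mediterranea* of the clonal line CIW4, labelled wild type and starved for 7 days, and no altered allele is named for any group. Buffer-injected animals received IB buffer, the buffer used to elute vesicles, mixed with a fluorescent dextran into the tail, and those that held little dextran after 1 hour of recovery were taken out. RNA was taken from the tail piece behind the pharynx 24 hours after injection, and about 10% of the tail at its tip was left off. Uninjected animals are labelled as untreated controls, and the dextran and the selection by it are described for injected animals. The design text gives them the same 24 hours. The needle wound, the buffer, the dextran and that selection therefore cannot be told apart here. A replicate was a pool of 5 tail fragments. Another group of 4 libraries received extracellular vesicles (EVs) in the same buffer and dextran. These EVs came from pieces of planarians amputated 12 hours before. It shares the estimate of the spread and is otherwise named only beside single results.

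Planarians are flatworms that renew and regrow all tissues from a dispersed population of dividing stem cells. A wound that does no more than pierce the body sets off a transcriptional response in planarians, in which early genes are switched on in the cells near the wound and stem cell divisions follow. Loss of tissue adds a longer phase in which missing structures are rebuilt. An injection into the tail is a wound of the first kind, and RNA taken a day later comes from the whole tail piece and not from the wound site alone.

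The files name transcripts by identifiers of the dd_Smed_v6 type and pair none with a gene name, so the tissue could not be checked against cell type markers and no role is given to any transcript. Totals ran from 19621187 to 30903133 counts per library. Libraries of a group differed by more than the runs of a library did, with a mean chi-square per transcript of 4.33 to 18.5 against 1.504 to 1.95. The biological coefficient of variation, the spread between libraries beyond counting error, was 9.12% among buffer-injected and 6.34% among uninjected libraries. It stayed between 8.18% and 10.1% with any 1 buffer-injected library left out, and between 5.80% and 7.23% with any 1 uninjected library left out.

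Among called transcripts with a mean of at least 30 CPM (counts scaled to a common library size) over the 8 libraries, only those whose groups did not overlap were considered, and the 2 largest rises and the 2 largest falls of these are named. The separation of the groups in these 4 is therefore part of the choice. dd_Smed_v6_1837_0_1, of 694 bases, stood at 517, 477, 478 and 559 CPM in the buffer-injected libraries, against 45.1, 57.3, 34.7 and 59.5 CPM in the uninjected libraries. Buffer-injected replicate 4 was the highest library and uninjected replicate 3 the lowest. The means were 508 ± 39.1 and 49.2 ± 11.5 CPM (SD, n = 4 each), a log2 fold change of 3.37 ± 0.13 (SE, edgeR adjusted p = 7.37e-12), or 10.3-fold.

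dd_Smed_v6_6952_0_1, of 1976 bases, had the smallest p-value of all transcripts tested. It stood at 177, 154, 180 and 140 CPM in buffer-injected libraries, against 26.4, 25.8, 23.0 and 22.5 CPM in uninjected libraries. Buffer-injected replicate 3 was the highest and uninjected replicate 4 the lowest. The means were 163 ± 19.1 and 24.4 ± 1.95 CPM (SD, n = 4 each), with a log2 fold change of 2.73 ± 0.09 (SE, edgeR adjusted p = 2.23e-12), or 6.64-fold.

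The 2 largest falls at this level were smaller than the rises. dd_Smed_v6_1785_0_1, of 654 bases, stood at 37.4, 33.8, 28.7 and 40.7 CPM in buffer-injected libraries, against 107, 120, 107 and 134 CPM in uninjected libraries. Buffer-injected replicate 3 was the lowest and uninjected replicate 4 the highest. The means were 35.1 ± 5.14 and 117 ± 12.8 CPM (SD, n = 4 each), a log2 fold change of −1.74 ± 0.13 (SE) with an edgeR adjusted p of 1.81e-08.

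dd_Smed_v6_1127_0_1, of 1272 bases, stood at 68.0, 47.6, 64.6 and 68.5 CPM in buffer-injected libraries, against 192, 151, 197 and 163 CPM in uninjected libraries. Buffer-injected replicate 2 was the lowest and uninjected replicate 3 the highest. The means were 62.2 ± 9.91 and 176 ± 22.4 CPM (SD, n = 4 each), a log2 fold change of −1.498 ± 0.16 (SE) with an edgeR adjusted p of 1.94e-06. The authors' deposited table gives log2 fold changes of 3.36, 2.73, −1.74 and −1.505 for dd_Smed_v6_1837_0_1, dd_Smed_v6_6952_0_1, dd_Smed_v6_1785_0_1 and dd_Smed_v6_1127_0_1.

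**Figure D1:**
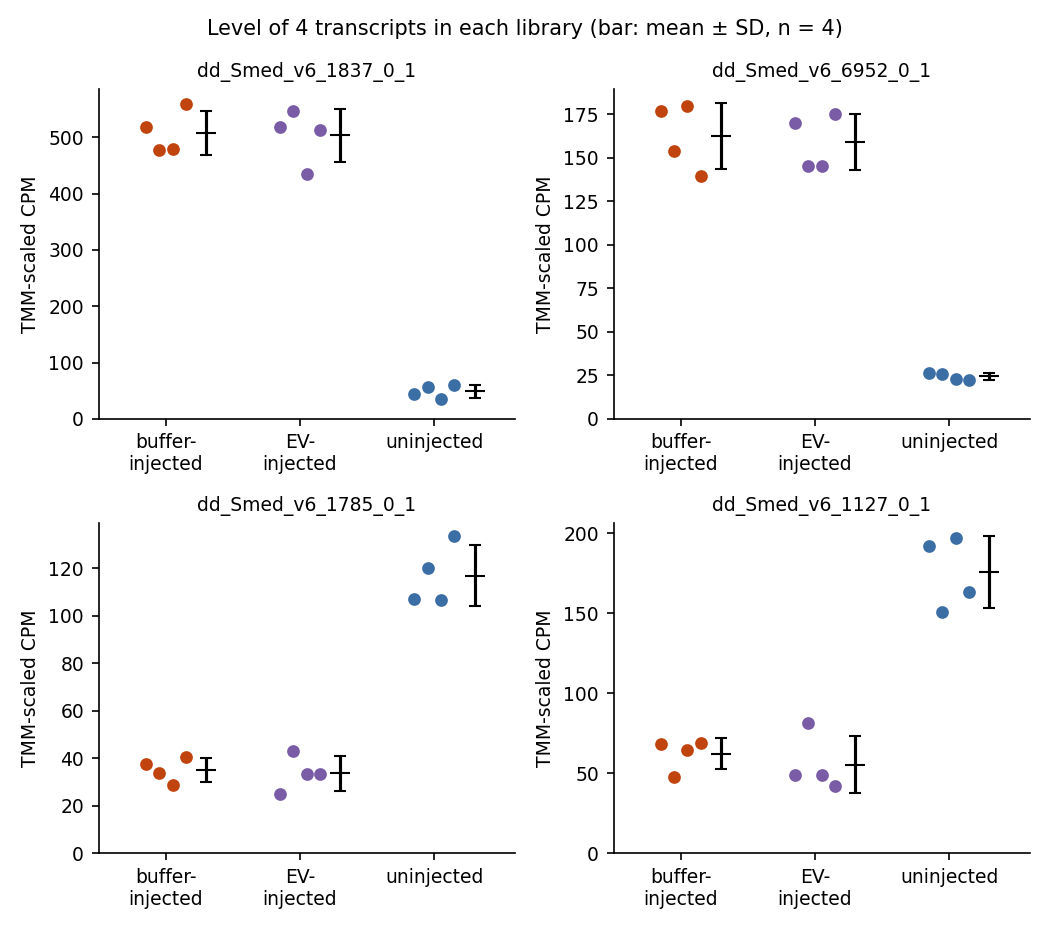
TMM-scaled CPM (vertical axis, from 0) of 4 transcripts in each of the 12 libraries, by group, with the mean and SD beside the points. For dd_Smed_v6_1837_0_1 and dd_Smed_v6_6952_0_1 the buffer-injected points lie above all uninjected points, for dd_Smed_v6_1785_0_1 and dd_Smed_v6_1127_0_1 below them, and the EV-injected points lie at the level of the buffer-injected ones.

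With EVs in the injected buffer the same 4 transcripts had similar levels. EV-injected, buffer-injected and uninjected tails had 503 ± 47.6, 508 ± 39.1 and 49.2 ± 11.5 CPM of dd_Smed_v6_1837_0_1 and 159 ± 15.98, 163 ± 19.1 and 24.4 ± 1.95 CPM of dd_Smed_v6_6952_0_1 (SD, n = 4 each). For dd_Smed_v6_1785_0_1 they had 33.7 ± 7.41, 35.1 ± 5.14 and 117 ± 12.8 CPM, and for dd_Smed_v6_1127_0_1 55.4 ± 17.7, 62.2 ± 9.91 and 176 ± 22.4 CPM. The direct comparison of EVs with buffer called 0.0993% of tested transcripts and none of these 4, whose edgeR adjusted p ran from 0.795 to 0.987. The approximate 95% interval, from the SE and the normal distribution, of the log2 fold change of EV-injected over buffer-injected tails was −0.24 to 0.21 for dd_Smed_v6_1837_0_1, −0.19 to 0.12 for dd_Smed_v6_6952_0_1, −0.31 to 0.20 for dd_Smed_v6_1785_0_1 and −0.48 to 0.15 for dd_Smed_v6_1127_0_1.

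These 4 stand at the ends of a broad distribution. Of 5274 tested transcripts with a mean of at least 30 CPM over the 8 libraries, 2292 were called at an edgeR adjusted p under 0.05, where 22% of all 21149 tested transcripts were. The libraries of both groups were apart for 2078 of the 2292, beside 4018 of all 4659 called transcripts. Of the 2078, 1229 were higher and 849 lower after buffer injection. At least 2-fold changes were found in 38 of the rises and 18 of the falls. Of the rises, 7 reached 4-fold, while the largest fall, of dd_Smed_v6_1785_0_1, was 3.33-fold. The third largest rise had a log2 fold change of 2.68 and the third largest fall −1.40.

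**Figure D2:**
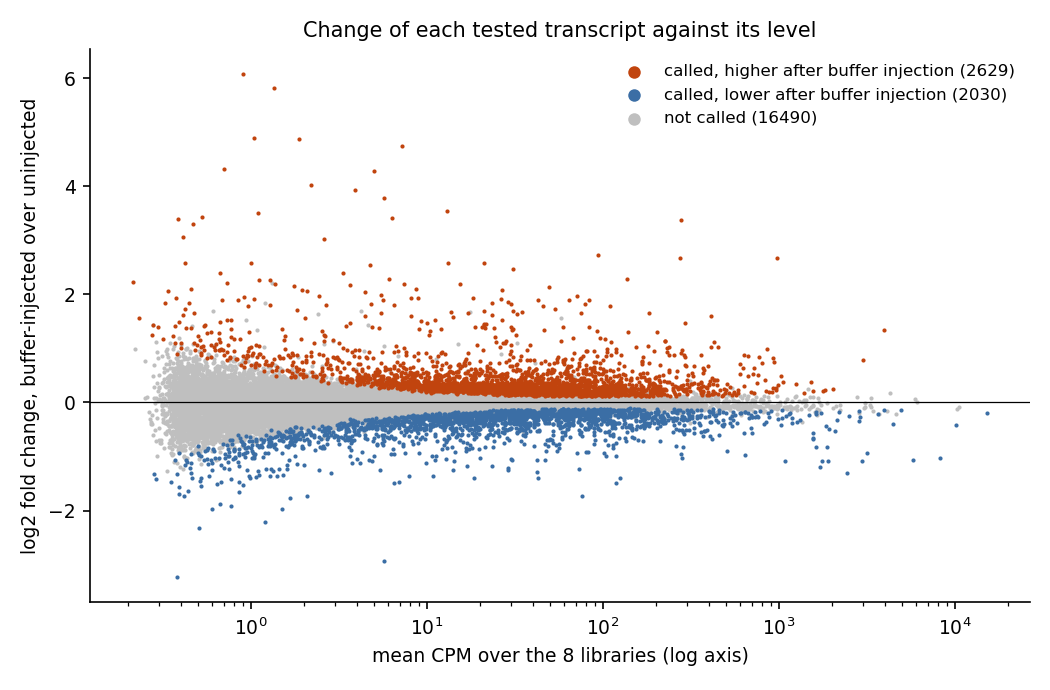
The log2 fold change of buffer-injected over uninjected tails (vertical axis) of each of 21149 tested transcripts against its mean CPM over the 8 libraries (horizontal log axis), coloured by the call at an adjusted p under 0.05. Among the 2629 called rises and 2030 called falls, the largest rise exceeds the largest fall in size.

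Over all tested transcripts, 2629 were called higher (12.4%) and 2030 lower (9.6%). Groups that did not overlap were found for 5028 transcripts (23.8%), and 4018 (19%) were also called. Most called changes were small. A total of 2380 called transcripts, 51.1% of them, changed by less than 0.32 on the log2 scale, 1407 higher and 973 lower, and 80.0% changed by less than 1.5-fold. From there up to 1.5-fold there were 720 rises and 627 falls, and between 1.5-fold and 2-fold 294 rises and 312 falls. Between 2-fold and 4-fold 159 rose and 114 fell, and 49 rose and 4 fell by 4-fold or more, which is 0.232% and 0.0189% of tested transcripts. Among the 208 rises of at least 2-fold (0.983%), 62 were in transcripts under 1 CPM, as were 13 of the 49 of at least 4-fold. Among the 118 falls of at least 2-fold (0.558%), 53 were in transcripts under 1 CPM. When 1 CPM was asked for in 4 libraries, 158 rises and 75 falls of at least 2-fold were called.

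**Figure D3:**
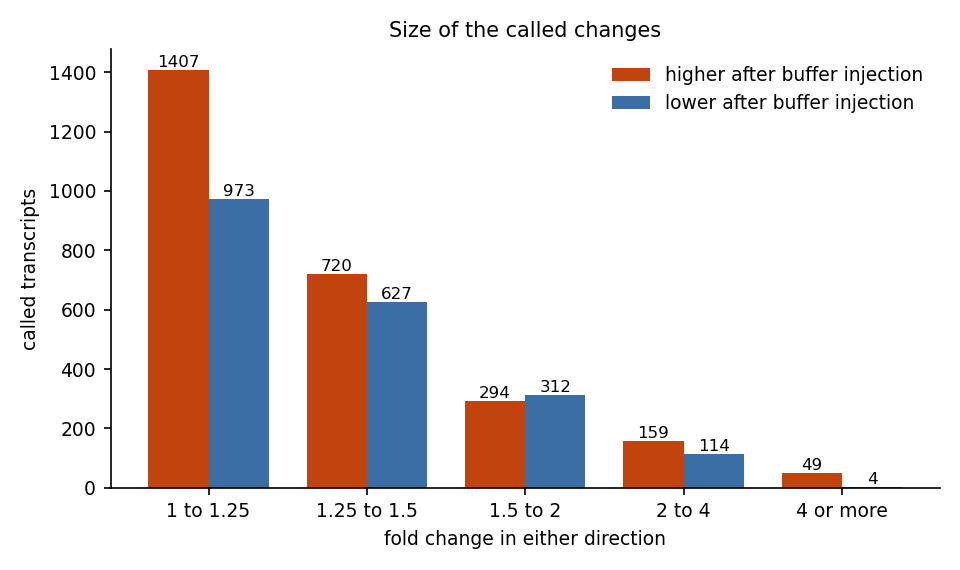
Number of called transcripts (vertical axis, from 0) by size of the change in either direction (horizontal axis), higher and lower after buffer injection side by side. The smallest changes are the most frequent in both directions, and 49 rises against 4 falls reach 4-fold.

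The counts at 4-fold changed when single libraries were left out. In place of 49 rises there were 30 without buffer-injected replicate 2 and 70 without replicate 4, the lowest and highest counts. The 4 falls became 7, 9 and 11 without buffer-injected replicates 1, 2 and 3. At 2-fold, 208 rises (0.983%) became 159 without buffer-injected replicate 2 or replicate 3 and 254 without replicate 4, within 1.5 times of the full count.

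A part of the rises was uneven between the buffer-injected libraries. For 37 of the 208 rises of at least 2-fold, buffer-injected replicate 2 alone held more than 50% of the summed CPM of the 4 buffer-injected libraries, and no other library did so for any of the 208. The set was picked by these values, so what follows describes it and tests nothing. Its median level was 27.6 CPM in buffer-injected replicate 2 and 10.7 CPM in replicate 3, but 2.24 and 1.65 CPM in replicates 1 and 4, against 0.526, 1.47, 1.98 and 2.82 CPM in the 4 uninjected libraries. All 37 exceeded every uninjected library in buffer-injected replicates 2 and 3. In replicates 1 and 4 only 3 and 4 of them did. Only 1 of the 37 kept the groups apart, and 2 of them were called when replicate 2 was left out. In EV-injected libraries the median of the set was 3.896, 3.40, 7.56 and 1.604 CPM, highest in EV-injected replicate 3. Every uninjected library was exceeded by 17, 16, 35 and 8 of the 37 in EV-injected replicates 1 to 4. What sets these libraries apart was not tested.

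The other 171 rises of at least 2-fold were picked by the same values, so they too are described and not tested. They were of similar size in the 4 buffer-injected libraries, which that choice favours. Their median log2 ratio to the uninjected mean was 1.30, 1.39, 1.42 and 1.16 in buffer-injected replicates 1 to 4, against −0.05, 0.05, −0.04 and 0.04 in the uninjected libraries. Of the 171, 159, 169, 171 and 154 lay above every uninjected library in those 4 buffer-injected libraries. Together they took 1.71%, 1.74%, 1.86% and 1.62% of CPM in the buffer-injected libraries, against 0.587%, 0.638%, 0.612% and 0.643% in the uninjected ones. Of the 49 rises of 4-fold or more, 20 belonged to the set of which buffer-injected replicate 2 held over 50%, and 29 did not.

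**Figure D4:**
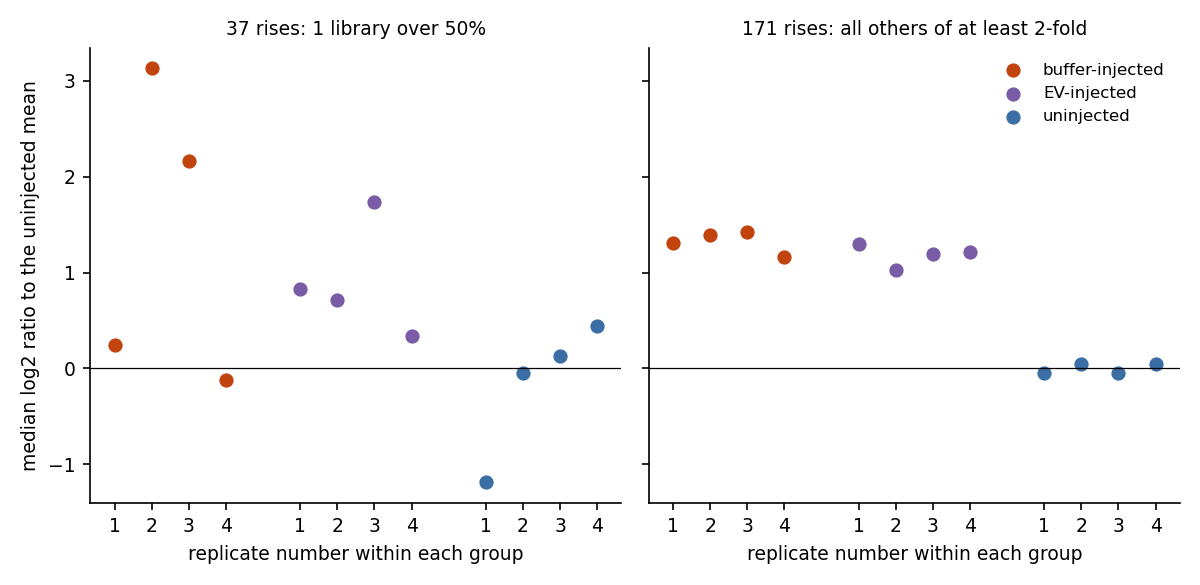
Median log2 ratio to the uninjected mean (vertical axis) in each library (horizontal axis, replicate number by group) for 37 rises of which buffer-injected replicate 2 held over 50% (left) and for the other 171 rises of at least 2-fold (right). On the left buffer-injected replicates 2 and 3 stand at 3.13 and 2.16 and replicates 1 and 4 at 0.24 and −0.12, while on the right all 4 stand between 1.16 and 1.42.

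How far the response repeats was described on libraries that had no part in the call. In 16 fits, 1 buffer-injected and 1 uninjected library were left out, transcripts were called on the remaining libraries, and their direction was read in the pair left out. The fits called 3106 to 4003 transcripts. Between 90.2% and 96.8% of them went the same way in the pair left out, with a median of 94.8%, against a median of 68.5% over all transcripts tested in those fits. Transcripts called higher went the same way in 90.3% to 98.2% and those called lower in 88.6% to 96.3%.

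For changes of at least 2-fold the agreement varied more between pairs, from 76.5% to 96.0%. The lowest value belonged to buffer-injected replicate 4 with uninjected replicate 3, and the next, 78.4% and 80.0%, to buffer-injected replicate 4 and replicate 1, each with uninjected replicate 4. Without the 37 rises of which buffer-injected replicate 2 held over 50%, these pairs stood at 80.4%, 84.7% and 86.0%. Those 37 were picked on all buffer-injected libraries, the ones left out among them. Their removal was therefore bound to favour agreement in replicates 4 and 1, and these values test nothing. Buffer-injected replicates 4 and 1 also showed the smallest rises. Among transcripts called higher by at least 2-fold without a given library, the median log2 ratio of that library to the uninjected mean was 1.16, 1.29, 1.52 and 0.83 for buffer-injected replicates 1 to 4, where the other 3 libraries had 1.52, 1.33, 1.42 and 1.44. For falls of at least 2-fold it was −0.98, −0.97, −1.15 and −0.93, where the other 3 libraries had −1.13, −1.09, −1.16 and −1.12. The left-out medians spanned a narrower range for falls than for rises. Each median for rises is over its own set, of 212, 159, 159 and 254 transcripts for buffer-injected replicates 1 to 4. On the common set of 171 rises described above the medians were 1.30, 1.39, 1.42 and 1.16.

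The loss of abundance was concentrated in a few transcripts and the gain was spread over many. The transcripts called higher gained 52905 CPM in sum, and those called lower lost 68963 CPM. Of the gain, 50% was held by 114 transcripts. Of the loss, 50% was held by 23 transcripts. The 10 largest gains made up 18.3% of the gain, at 402 to 3415 CPM each, and the 10 largest losses made up 36.0% of the loss, at 1256 to 5620 CPM each. Summed CPM over tested transcripts was 995118 in buffer-injected and 1019590 in uninjected tails, because TMM scaling does not hold the sum fixed, so gain and loss need not be equal. With DESeq2 size factors 109 and 25 transcripts held 50% of gain and loss.

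**Figure D5:**
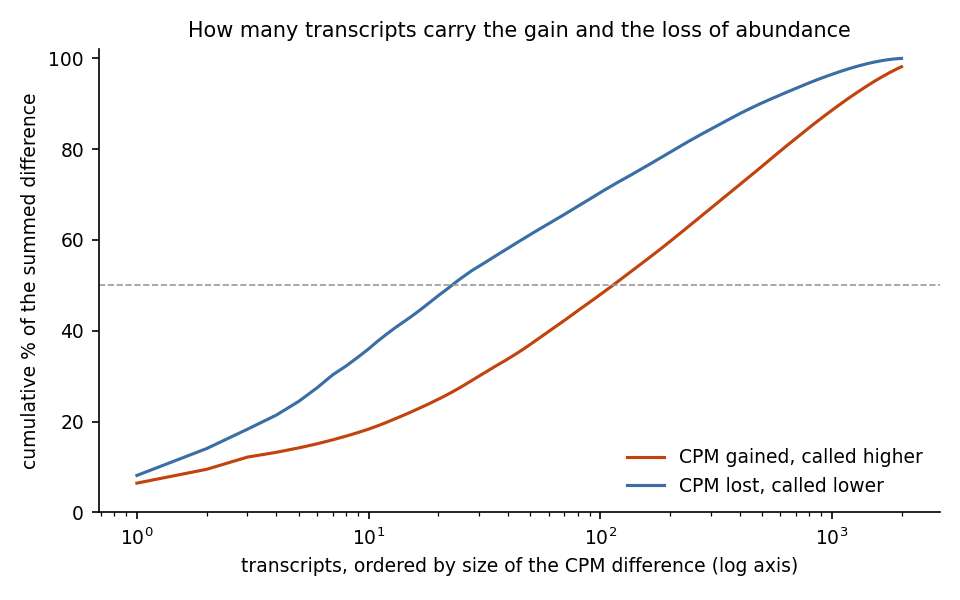
Cumulative share of the summed CPM difference (vertical axis, from 0) over called transcripts ordered by the size of their difference (horizontal log axis, first 2000 shown), for CPM gained and CPM lost after buffer injection. The line of the loss passes 50% at 23 transcripts and the line of the gain at 114.

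The 23 transcripts that held 50% of the loss took 6.65%, 5.95%, 7.08% and 6.36% of counts in the buffer-injected libraries, against 9.70%, 9.51%, 9.64% and 10.1% in the uninjected libraries. Their log2 fold changes ran from −1.31 to −0.20 with a median of −0.67. They were abundant, at 1475 to 16232 CPM in uninjected tails. The 114 transcripts that held 50% of the gain took 7.61%, 7.91%, 7.92% and 7.32% of counts in the buffer-injected libraries, against 4.87%, 5.00%, 4.88% and 4.89% in the uninjected libraries. Their log2 fold changes ran from 0.18 to 3.37 with a median of 0.66, and their median level in uninjected tails was 300 CPM. Both sets were picked by the call and by the CPM difference in these same libraries. That choice favours abundant transcripts and groups that lie apart, so these values describe the sets and test nothing. In a pool of whole tail pieces, fewer cells of a type and less RNA per cell cannot be told apart.

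A shift away from the most abundant transcripts was seen in measures of each library that use no call and no scaling. The 100 most abundant transcripts of each library took 24.7%, 24.6%, 25.2% and 25.1% of counts in the buffer-injected libraries, against 27.6%, 27.6%, 27.4% and 28.3% in the uninjected ones. All buffer-injected libraries were lower. The means were 24.9% ± 0.280 and 27.7% ± 0.388 (SD, n = 4 each, two-sided exact permutation test, p = 0.0286, adjusted p = 0.0381 over 4 measures). The 1000 most abundant took 58.7% ± 0.261 in buffer-injected and 60.5% ± 0.380 in uninjected libraries (SD, n = 4 each, exact permutation p = 0.0286, adjusted p = 0.0381), again without overlap. Without the 10 transcripts most abundant over the 8 libraries, the difference of buffer-injected minus uninjected means in the share of the first 100 was −1.81 percentage points in place of −2.81. The p of 0.0286 is the smallest that 4 against 4 allows.

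Among the 100 transcripts with the highest mean CPM over the 8 libraries, 36 fell and 9 rose. Their median log2 fold change was −0.12, beside −0.0039 over all tested transcripts. Of these 100, 45.0% were called, beside 22% of all tested transcripts. That share is near the 45.4% of the 1000 highest and the 45.9% of transcripts at 100 CPM or more. Over the 1000 highest, 221 fell and 233 rose.

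Calls were counted by the level of a transcript, with no test between the levels. Under 1 CPM, 4.82% of 3881 tested transcripts were called, 91 higher and 96 lower. Rises made up 48.7% of these calls, but 53.5% with DESeq2, 55.6% with run 2 alone and 60.9% with the filter of 1 CPM in 4 libraries. From 1 to 10 CPM 12.1% of 7717 were called, 454 higher and 482 lower. From 10 to 100 CPM 34.9% of 7715 were called, with 1634 higher against 1059 lower, so that 60.7% of the calls in that range were rises. At 100 CPM or more 45.9% of 1836 were called, 450 higher and 393 lower. The standard error of a log2 fold change had a median of 0.31 in the lowest class and 0.05 in the highest, so the classes were not tested with equal precision. The median log2 fold change of all tested transcripts was −0.06, −0.02, 0.02 and −0.01 in the 4 classes from low to high.

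Length is in the files and was not used to choose or test transcripts. Transcripts under 1000 bases took 23.3%, 23.1%, 23.9% and 23.5% of counts in the buffer-injected libraries, against 24.4%, 24.2%, 24.2% and 25.1% in the uninjected libraries. The groups did not overlap, and the means were 23.5% ± 0.364 and 24.5% ± 0.438 (SD, n = 4 each, exact permutation p = 0.0286, adjusted p = 0.0381). The difference of buffer-injected minus uninjected means, −1.01 percentage points, was −0.492 without the 10 most abundant transcripts. With all transcripts counted, the difference lay in transcripts of 500 to 1000 bases, which held 17.7% to 18.6% of CPM in buffer-injected and 18.8% to 19.5% in uninjected libraries. Shares of transcripts under 500 bases, of 1000 to 2000 bases and of 2000 bases or more overlapped between the groups. Transcripts of 500 to 1000 bases held 34.7% of the CPM lost and 20.9% of the CPM gained. The mean length weighted by counts was 2280 ± 32.2 bases in buffer-injected and 2252 ± 23.0 bases in uninjected libraries (SD, n = 4 each, exact permutation p = 0.171, adjusted p = 0.171), and the groups overlapped.

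Longer transcripts were called more often over all levels, with 9.40% under 500 bases, 17.3% at 500 to 1000 bases, 27.5% at 1000 to 2000 bases and 30.1% at 2000 bases or more. Longer transcripts also collect more counts. Within 10 to 100 CPM the shares were 30.4%, 35.2%, 38.5% and 31.1% from short to long, without a steady order. They were 8.37%, 12.8%, 13.3% and 13.3% at 1 to 10 CPM. At 100 CPM or more they were 40.7%, 44.1%, 51.7% and 42.7%. Under 1 CPM they were 4.24%, 4.65%, 7.29% and 0%, the last of 18 tested transcripts. The share of rises among calls from 10 to 100 CPM was 70.8% under 500 bases (80 higher, 33 lower) and 56.1% at 2000 bases or more (474 higher, 371 lower). At 100 CPM or more these shares were 59.5% (22 higher, 15 lower) and 58.9% (206 higher, 144 lower). At 1 to 10 CPM they were 50.4% and 41.8%. No test was made between these classes.

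A few scarce transcripts had counts in 1 group alone. Counts in all 4 buffer-injected libraries and 0 in all uninjected libraries were found for 14 transcripts, with 5 to 110 counts summed over the group and a median of 9.5. The reverse held for 7 transcripts, with 4 to 17 summed counts and a median of 5. None of the 21 passed the filter on low counts, so none was tested in the main fit. In the fit without a count filter 9 of the 14 and 2 of the 7 were called, but their separation is part of the choice. A count of 0 allows up to 3 counts in a library, or 0.153 CPM at the smallest total, counting error only.

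Transcripts whose identifiers share their first number may share sequence. Of 319 such tested transcripts, 81 were called, or 25.4%, near the 22% of all tested transcripts. They form 167 pairs. Both members were called in 17 of these, in the same direction in 14 and in opposite directions in 3. How reads that fit several transcripts were counted is not given in the sources used here, so these counts are uncertain.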

How the data were processed

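The deposited values are whole, unnormalized counts per transcript, made by the authors for 2 sequencing runs and for their sum. The submitters' processing notes name FastQC 0.11.5, Bowtie2 2.3.1, featureCounts (Subread 1.6.3) and edgeR 4.0.16, and the design text adds BBDuk. For strand and multiply mapped reads the setting was not given in the sources used. Libraries were poly-A selected and read as pairs of 150 bases, per the labels. Runs were summed per library and equalled the authors' deposited sums in all 344904 cells. The authors' deposited table of comparisons, per the file headers, gives log2 fold changes, log2 mean CPM, an F score, p-values and false discovery rates, of which only log2 fold changes are printed.

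Counts of all 12 libraries were fitted in R 4.3.3 with edgeR 4.0.16 (filterByExpr, TMM scaling, quasi-likelihood F test, no covariate), and Benjamini-Hochberg adjusted p-values under 0.05 over all 21149 tested transcripts were called. The filter left out 7593 transcripts, and the tested ones held 99.9% of counts. Standard errors come from the F statistic. CPM are TMM-scaled, with 0.1 CPM added for ratios of single libraries. Library measures were compared by two-sided exact permutation tests. The p-values measure the spread between pools of tail fragments. The test was checked on simulated data.

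Transcripts are named by rule: the 2 largest rises and 2 largest falls among called transcripts with a mean of at least 30 CPM over the 8 libraries and no overlap between groups. Lists of named genes and markers could not be applied without gene names. The members and lists were chosen with earlier results of these data known. The rises of which 1 library held over 50% and the other rises of at least 2-fold were described after seeing the data. So were the 100 highest transcripts and the sets holding 50% of gain or loss. Alternatives were DESeq2 1.42.0 and its size factors, 2 other filters, a fit to 8 libraries, a replicate block, run 1 or run 2 alone, library measures without the 10 most abundant transcripts, and each of the 8 libraries left out. Figures were drawn with matplotlib 3.10.9.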

Additional observations from a re-analysis of the deposited data

Results flagged for a closer look

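In 20 checks, each asking whether 1 library stood far from its group, 1 value was marked, and chance marks about 1. Uninjected replicate 4 detected 26613 transcripts, where uninjected replicates 1 to 3 detected 27018 to 27096, and the gap took 0.839 of the range. It also had the smallest total, 19621187 counts. Without it there were 4121 calls between buffer-injected and uninjected tails.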

How the results depend on the processing

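Run 2 alone, which is shallower, gave 2993 calls, 1662 higher and 1331 lower. It gave 27 calls under 1 CPM, 437 at 1 to 10 CPM and 1764 at 10 to 100 CPM, and 187, 593 and 1332 calls at under 500, 500 to 1000 and 1000 to 2000 bases. Calls under 1 CPM (187) were 114 with DESeq2, 98 with run 1 alone and 46 with 1 CPM asked for in 4 libraries, a filter that removes scarce transcripts. That filter gave 75 falls of at least 2-fold and 2 of at least 4-fold, and DESeq2 also gave 2. Without a count filter, scarce transcripts are tested too, and there were 85 rises and 21 falls of at least 4-fold, with a median log2 fold change of −0.0491 in transcripts under 500 bases. Leaving out rises of which 1 buffer-injected library held over 50%, an alternative chosen after seeing the data, left 29 rises of at least 4-fold and 171 of at least 2-fold. With each library left out in turn, rises of at least 4-fold ran from 30 to 70 and falls from 4 to 11, and all calls from 3773 to 4429. Causes were not tested for DESeq2 or for single libraries.

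In the main fit, libraries were not paired by their replicate numbers. Deviations of same-numbered buffer-injected and uninjected libraries correlated at 0.244, 0.00118, 0.0408 and 0.0314, and only those numbered 1 were each other's best partners. These 4 values do not decide whether same-numbered pools belong together. With the replicate number as a block there were 4683 calls. The 4 named transcripts kept their call and direction in all 64 checks, with edgeR or DESeq2 adjusted p of at most 1.62e-05. No call shared with another setting turned its direction. The checks reuse the same counts, and the 4 were chosen for large changes, so a loss or a turn was unlikely from the start.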
